A study of Mus musculus with 33 samples.

Results

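The 10 genes described here encode the surface proteins by which mouse blood stem and progenitor cells are told apart in a cell sorter. They are Kit, Ly6a (the protein is Sca-1), Cd34, Flt3 (Flk2), Slamf1 (CD150), Cd48, Procr (EPCR), Fcgr3, Fcgr2b (both bind the antibodies sold against CD16/32) and Esam. Members were chosen by symbol, and 10 of 10 were found among the 55376 gene symbols counted in each of 33 libraries of total RNA. Cohort 2 held 24 libraries, 8 for each of 3 populations sorted from bone marrow, namely hematopoietic stem cells (HSCs), progenitors of lymphocytes (CLPs) and progenitors of granulocytes and monocytes (GMPs). Within each population, 4 libraries came from old controls (O-WT) and 4 from old animals that drank nicotinamide riboside (O-NR). Cohort 1 held 9 HSC libraries, of which 2 were O-WT, 4 O-NR, and 3 of mice taken off NR for 2 months (O-NR-RC). All mice were C57BL/6 males of 24 to 29 months, NR (a precursor of NAD+) was given at 12 mM in the drinking water for 4 to 6 weeks, and no young or genetically altered mice were among these libraries. Levels are given as CPM, a gene's reads per 1000000 reads counted in its library, and differences as log2 fold changes from edgeR with TMM scaling.

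In blood formation, HSCs keep Kit, the receptor for stem cell factor, and Sca-1 on their surface, and in the mouse they lack CD34, Flk2 and CD48 but carry CD150, EPCR and ESAM. Flk2 appears as cells lose the capacity for long-term self-renewal and turn towards the lymphoid side, and CD34 and the Fc gamma receptors mark the step to GMPs. CD150 and CD48 are both SLAM family proteins, of which CD48 is the ligand of CD244. The study defined HSCs as lineage-negative Kit+ Sca-1+ CD34- Flk2- CD150+ cells, CLPs as lineage-negative IL-7Rα+ Flk2+ cells, and GMPs as lineage-negative Sca-1- Kit+ CD34+ Fc gamma receptor+ cells. Its methods also describe a selection of Kit-positive marrow cells before HSCs were sorted, and whether CLPs and GMPs came from such marrow is not clear from the sources used here. Differences in Kit, Ly6a, Cd34, Flt3, Slamf1, Fcgr3 and Fcgr2b between populations therefore bear on these definitions and are no findings, whereas Cd48, Procr and Esam entered none of them. The gates read protein and the libraries hold RNA of pooled sorted cells, so fewer cells with a transcript and less of it per cell cannot be told apart.

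Fcgr2b, Fcgr3, Cd48, Slamf1 and Cd34 lie on chromosome 1. On mm10 (Gencode M21), Fcgr2b is at chr1:170958617-170976547 and Fcgr3 at chr1:171051174-171064935, both on the minus strand and 74.6 kb apart with 1 protein-coding gene, Fcgr4, between them. Cd48 (chr1:171682009-171705258) and Slamf1 (chr1:171767127-171801184) are neighbours on the plus strand with a gap of 61.9 kb and 0 protein-coding genes between them. Cd34 is at chr1:194938819-194961279, Kit at chr5:75574916-75656722, Flt3 at chr5:147330741-147400489, Ly6a at chr15:74994877-74998031, Procr at chr2:155751117-155755471 and Esam at chr9:37528078-37538319. The exons of Cd34 and of Fcgr2b overlap genes on the opposite strand (Gm16897 and Gm38204), and the strand setting of the counting is not given in the sources used here.

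The low-affinity Fc receptors are close relatives, and the longest stretch their coding sequences share is printed because reads inside it cannot be assigned to one of them by sequence alone. The 129 bases run from exon 3 (102 bases, lower case) into exon 4 (27 bases, capitals) of both transcripts, at chr1:170967980-170968081 and chr1:170966674-170966700 in Fcgr2b and at chr1:171057691-171057792 and chr1:171054167-171054193 in Fcgr3.
Fcgr2b and Fcgr3: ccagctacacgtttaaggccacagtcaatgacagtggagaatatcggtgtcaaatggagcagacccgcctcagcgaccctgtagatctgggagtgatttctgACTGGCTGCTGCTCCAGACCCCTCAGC
Of all windows of 100 bases in the annotated transcripts, 2.54% of those of Fcgr3 recur in Fcgr2b, and 0.753% of those of Fcgr2b recur in Fcgr3. In all, 4.30% of the Fcgr2b windows recur in some other gene, as do 1.45% of those of Ly6a (in Ly6c1) and 0.696% of those of Cd34, and 0 windows of the other 6 members. How the counting treated reads that match several genes is not given in the sources used here, so the shared part of the 2 Fc receptors is uncertain.

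The 2 SLAM family neighbours had opposite levels in HSCs, so 240 bases of the region just before each start are shown, from the RefSeq promoter table (GRCm38.p6), which held 8 of the 10 members. Motifs of 3 families of blood transcription factors were searched on both strands. The RUNX motif was searched for as TGTGGT. The letters of the GATA factors were TGATAA in one form, with AGATAA as the other form allowed. For factors of the ETS family the search used AGGAAG in the same way, and it also took CGGAAG as a match. Capitals mark the matches.
Slamf1, chr1:171766882-171767121, plus strand: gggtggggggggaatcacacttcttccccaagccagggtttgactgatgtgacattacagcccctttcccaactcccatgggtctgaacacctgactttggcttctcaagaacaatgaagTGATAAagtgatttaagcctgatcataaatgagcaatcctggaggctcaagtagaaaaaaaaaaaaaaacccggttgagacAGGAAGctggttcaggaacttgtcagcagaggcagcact
Cd48, chr1:171681742-171681981, plus strand: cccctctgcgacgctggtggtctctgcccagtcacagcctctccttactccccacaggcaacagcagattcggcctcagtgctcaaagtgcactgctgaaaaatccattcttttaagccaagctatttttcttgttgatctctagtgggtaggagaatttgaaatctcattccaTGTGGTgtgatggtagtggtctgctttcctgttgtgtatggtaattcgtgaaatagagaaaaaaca
The Slamf1 window held 1 GATA and 1 ETS match and the Cd48 window 1 RUNX match. Such matches were common, with the RUNX letters in 13.6%, the GATA letters in 16.2% and the ETS letters in 37.6% of 32851 windows of that length, and they are a description of sequence only.

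Depth ranged from 4792380 to 23816042 counted reads per library. Reads on 1971 genes for smell and pheromone receptors were summed as a measure of background. That the sorted cells hardly transcribe these genes is an assumption that was not tested. The sum was 1502 to 4671 CPM in cohort 2 HSCs, 2115 to 8303 in CLPs, 858 to 2376 in GMPs and 4445 to 15260.0 in cohort 1, where O-NR replicates 1 and 2 and O-NR-RC replicates 2 and 3 stood apart above 10000 CPM. Per kb of exon these genes averaged 0.250 to 0.779 CPM in cohort 2 HSCs, 0.353 to 1.38 in CLPs and 0.143 to 0.396 in GMPs, and a member's level per kb is set against this receptor level wherever it was low. The populations carried their defining markers. The summed CPM of 8 HSC markers was 1698 to 1936 in cohort 2 HSCs, at most 252 elsewhere in cohort 2, and 998 to 1665 in cohort 1 HSCs. That of 8 CLP markers was 2409.6 to 3727 in CLPs, and that of 8 GMP markers 17403 to 20052 in GMPs. B and plasma cell markers reached 743 CPM in 1 O-WT HSC library of cohort 2, against a median of 107 over the 8. In cohort 1 they reached 402 CPM in an O-NR-RC library, against a median of 80.1 over the 9.

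In O-WT mice the 3 populations had distinct sets of surface marker transcripts. HSCs held the most Kit, Ly6a, Slamf1, Procr and Esam and almost no Cd48. CLPs were set apart by Flt3, and GMPs by Fcgr3 and Fcgr2b, whereas Cd34 and Cd48 were shared by CLPs and GMPs. Of the 10 members, 5 were higher and 4 lower in HSCs than in CLPs, against 18.3% and 12.4% of the 18830 genes tested. Against GMPs, 5 were higher and 5 lower in HSCs (background 23.9% and 22.0%), and CLPs had 5 higher and 4 lower than GMPs (35.7% and 25.3%; edgeR's quasi-likelihood test, adjusted p below 0.05). The libraries of the populations did not overlap for 9, 10 and 7 members, against 31.9%, 49.6% and 50.3% of the genes tested. These counts pool members that helped define the populations with Cd48, Procr and Esam, so they are no finding against the shares of all genes. Of the members outside the definitions, Procr and Esam were called higher and Cd48 lower in HSCs in both contrasts. In CLPs against GMPs, Procr and Esam were called higher and Cd48 was not called. The median log2 fold change of all genes was −0.09, 0.30 and 0.23 in these 3 contrasts. Scaling over the 3512 genes above 30 CPM in every O-WT library of cohort 2, added after seeing the data, moved it to −0.24, 0.73 and 0.80.

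**Figure D1:**
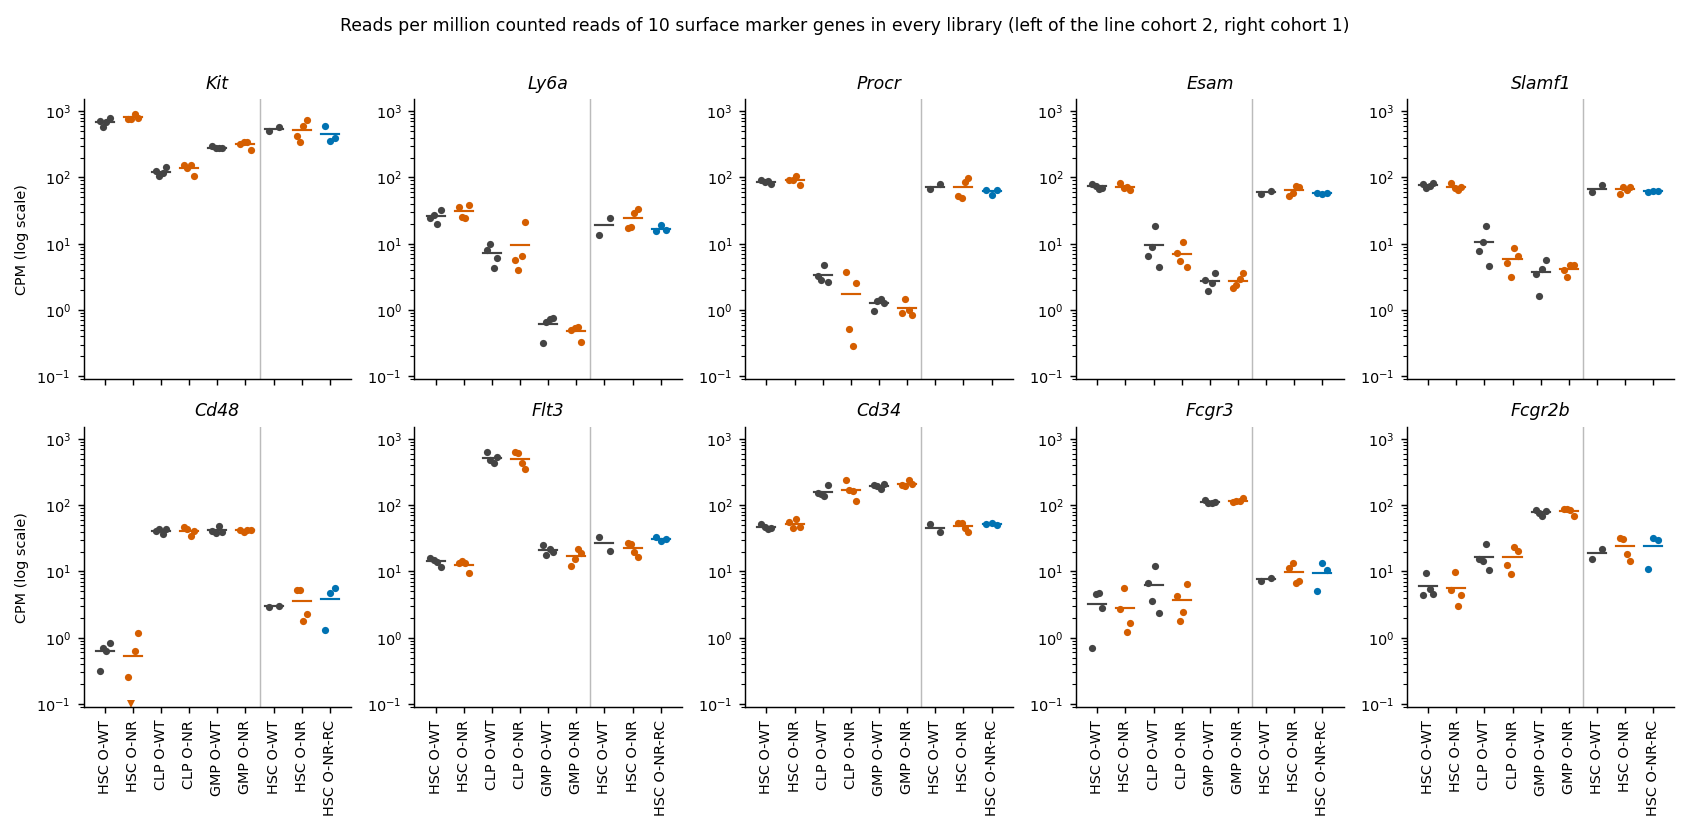
CPM (log axis) of the 10 genes in each of the 33 libraries, with points for libraries and bars for group means; a triangle on the axis is a library with 0 reads. Kit, Procr, Esam and Slamf1 are high in every HSC group, Flt3 in CLPs, and Fcgr3 and Fcgr2b in GMPs.

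Kit and Flt3 are related receptor tyrosine kinases, for stem cell factor and for FLT3 ligand. Kit was at 715, 586, 695 and 784 CPM in the 4 O-WT HSC libraries, at 127, 107, 115 and 141 in CLPs and at 297, 275, 279.7 and 277 in GMPs. The 3 ranges did not overlap, and HSCs were 6.06 times above CLPs and 2.02 times above GMPs (log2 fold changes 2.60 ± 0.25 and 1.02 ± 0.23, SE; edgeR adjusted p = 1.51e-10 and 0.000537). CLPs were below GMPs (log2 fold change −1.58 ± 0.24, adjusted p = 2.75e-06). The call between HSCs and GMPs was lost without a filter on low counts (0.74, adjusted p = 0.182). Flt3 was at 15.7, 14.8, 14.1 and 11.9 CPM in HSCs, at 641, 482, 438 and 533 in CLPs and at 25.5, 17.8, 22.1 and 19.6 in GMPs. CLPs thus stood 35.1 times above HSCs and 18.9 times above GMPs. The Flk2-negative HSCs still held Flt3 reads at 3.08 to 10.2 times the receptor level per kb, and were below GMPs by a log2 fold change of −0.89 ± 0.23 (adjusted p = 0.00200).

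Ly6a and Procr encode proteins of HSC sorting that differ in their role, Sca-1 being a small GPI-anchored protein of the Ly6 family and EPCR the receptor of protein C on endothelium and stem cells. Ly6a was at 24.7, 27.3, 19.7 and 32.5 CPM in HSCs, 8.10, 9.91, 4.38 and 6.14 in CLPs and 0.321, 0.659, 0.729 and 0.766 in GMPs. The order held without overlap, with log2 fold changes of 1.95 ± 0.28 for HSCs over CLPs and 3.15 ± 0.34 for CLPs over GMPs (adjusted p = 6.36e-07 and 6.74e-09). The log2 ratio of Kit to Ly6a reads ran from 4.35 to 5.25 in the HSC libraries and from 8.35 to 9.59 in the GMP libraries (8 each, 1 read added to each gene). In the Sca-1-negative GMPs, Ly6a rested on 5 to 12 reads per library, at 1.11 to 3.82 times the receptor level. Procr, which no gate used, was at 90.2, 86.4, 87.3 and 78.8 CPM in HSCs, 3.21, 2.87, 4.80 and 2.65 in CLPs and 0.963, 1.37, 1.46 and 1.28 in GMPs. Its O-WT HSC replicates had a coefficient of variation of 5.68% on library totals, 19.3% with TMM scaling and 7.16% with scaling over genes above 30 CPM. It had the largest log2 fold changes in favour of HSCs, 4.81 ± 0.22 over CLPs and 5.76 ± 0.23 over GMPs (adjusted p = 1.59e-17 and 1.82e-19).

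Esam and Cd34 are adhesion molecules, Esam of the immunoglobulin superfamily at cell junctions and Cd34 a sialomucin. Esam, also outside the gates, was at 80.1, 75.1, 67.9 and 69.3 CPM in HSCs, 6.55, 8.90, 18.4 and 4.40 in CLPs and 2.82, 1.92, 2.52 and 3.66 in GMPs. HSCs were 9.09 times above CLPs and 22.2 times above GMPs (log2 fold changes 3.18 ± 0.24 and 4.47 ± 0.26; adjusted p = 8.33e-13 and 7.71e-16). Cd34 was at 52.4, 47.0, 44.2 and 45.9 CPM in HSCs, 152, 145, 139 and 204 in CLPs and 205, 191, 178 and 208 in GMPs. The CD34-negative HSC gate thus came with a Cd34 level that was 3.20 times below CLPs and 5.03 times below GMPs (adjusted p = 1.90e-07 and 1.78e-10), and that was still 8.27 to 28.7 times the receptor level. Between CLPs and GMPs the values overlapped, and the call (log2 fold change −0.65 ± 0.22, adjusted p = 0.0114) was lost with scaling on genes above 30 CPM (−0.14, adjusted p = 0.227).

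Slamf1 and Cd48 are the SLAM family pair whose opposite surface presence defines HSCs in many sorts. Slamf1 was at 80.7, 69.0, 73.3 and 81.2 CPM in HSCs, 7.74, 10.8, 18.8 and 4.64 in CLPs and 3.53, 1.65, 4.11 and 5.70 in GMPs. HSCs were above both by log2 fold changes of 3.10 ± 0.27 and 4.10 ± 0.28 (adjusted p = 1.45e-11 and 3.32e-14). Cd48, which entered no gate, was at 0.310, 0.711, 0.633 and 0.83 CPM in HSCs, 40.8, 43.7, 37.4 and 43.1 in CLPs and 41.5, 38.3, 48.5 and 39.7 in GMPs. The HSC values rested on 4 to 12 reads per library, at 0.768 to 1.91 times the receptor level. CLPs and GMPs were 61.7 and 82.2 times above HSCs (log2 fold changes −5.95 ± 0.27 and −6.36 ± 0.27; adjusted p = 1.55e-17 and 5.56e-19), the largest differences of any member. CLPs and GMPs had overlapping Cd48 values, and their log2 difference of −0.41 ± 0.18 missed the threshold (adjusted p = 0.0503). Its call depended on the settings. It passed with the replicate number as a block (−0.43, adjusted p = 0.0472), with RLE scaling (0.0139), DESeq2 (0.0148), a limit of 1 CPM (0.0153), no filter (0.0153) and one model of 24 libraries (0.0386), and in 7 of 12 fits that left out a library. It turned to 0.016 without scaling and to 0.12 on scaling over genes above 30 CPM, and was −0.037 with upper quartile scaling. Per library, the log2 ratio of Slamf1 to Cd48 reads (1 added to each) ran from 5.80 to 9.27 in the 8 HSC libraries, −3.76 to −0.98 in CLPs and −4.49 to −2.78 in GMPs.

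Fcgr3 and Fcgr2b encode low-affinity receptors for IgG, Fcgr3 an activating one that signals through the chain Fcer1g and Fcgr2b the inhibitory one. Fcgr3 was at 118, 109, 106 and 113 CPM in GMPs, 6.79, 3.59, 11.9 and 2.32 in CLPs and 0.698, 4.51, 4.75 and 2.83 in HSCs. GMPs were 46.2 times above HSCs and 26.3 times above CLPs (adjusted p = 6.79e-16 and 3.40e-14), whereas HSCs and CLPs overlapped and their log2 difference of −0.81 ± 0.33 did not pass (adjusted p = 0.0592). With the replicate number as a block, that difference was −0.79 and passed (adjusted p = 0.0454), as it did with RLE scaling (adjusted p = 0.0408) and in 3 of 12 fits that left out a library. Fcgr2b was at 85.6, 76.4, 67.7 and 81.5 CPM in GMPs, 15.2, 14.4, 26.1 and 10.7 in CLPs and 4.34, 9.60, 5.38 and 4.56 in HSCs. All 4 GMP libraries lay above the others (−4.07 ± 0.21 for HSCs and −2.70 ± 0.20 for CLPs against GMPs), and CLPs above HSCs (HSC over CLP −1.37 ± 0.21, adjusted p = 2.05e-06). In O-NR mice the ranges of HSCs and CLPs overlapped (2.98 to 9.98 and 9.07 to 23.5 CPM). Over both treatments, Fcgr2b was at 1.65 to 3.00 times the receptor level per kb in HSCs and 3.25 to 5.16 times in CLPs. Markers of monocytes and macrophages, which also express both receptors, were summed over 8 genes. The sum was 103 to 274 CPM in GMPs, 48.4 to 143 in CLPs and 18.5 to 56.7 in HSCs, and their part was not tested. By reads, not set against length, Fcgr3 had the more in every GMP library (log2 ratio 0.34 to 0.91, n = 8). Fcgr2b had the more in every CLP (−3.21 to −1.12) and HSC library (−2.51 to −0.18). The exons of Fcgr2b are longer (5.79 against 1.74 kb). Per kb, the O-WT mean of Fcgr3 was above that of Fcgr2b in GMPs (64.3 against 13.4 CPM). It was so too in HSCs (1.84 against 1.03) and CLPs (3.54 against 2.87), where libraries overlapped. In the libraries of both treatments, Fcgr3 was at 1.61 to 5.10 (HSCs) and 1.69 to 7.66 times (CLPs) the receptor level.

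**Figure D2:**
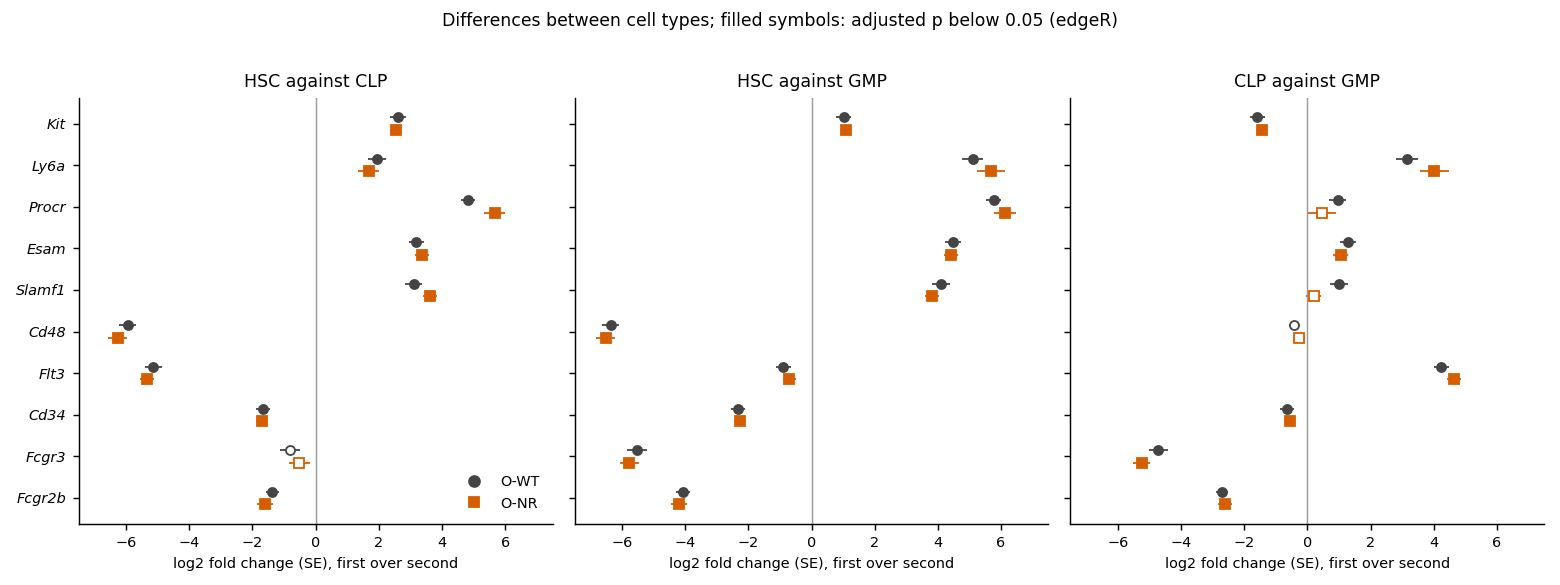
Log2 fold changes with standard errors between populations for the 10 genes, circles for O-WT and squares for O-NR (4 libraries per population each). Filled symbols passed an adjusted p of 0.05, and Fcgr3 between HSCs and CLPs and Cd48 between CLPs and GMPs are open in both treatments.

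To rank different genes, levels were taken per kb of exon, with all annotated exons of a gene merged. Which transcripts the cells held was not measured, so the order depends on the annotation. O-WT HSCs had Kit first (78.0 ± 9.22 CPM per kb, SD, n = 4), then Procr (42.2 ± 2.40), Esam (25.5 ± 1.96), Ly6a (21.6 ± 4.41), Slamf1 (12.4 ± 0.962) and Cd34 (6.50 ± 0.490). Libraries of neighbours in this order overlapped for Esam and Ly6a and not for the other neighbours down to Flt3. In CLPs Flt3 led (84.8 ± 14.1), before Cd48 (34.7 ± 2.41), Cd34 (22.0 ± 4.10) and Kit (13.7 ± 1.70), again without overlap between neighbours. From Ly6a (5.92 ± 1.99) down to Procr (1.67 ± 0.478), CLP neighbours overlapped. In GMPs Fcgr3 led (64.3 ± 2.93), and Cd48 (35.3 ± 3.82) and Kit (31.7 ± 1.13) overlapped, followed by Cd34 (26.8 ± 1.86), Fcgr2b (13.4 ± 1.34) and Flt3 (3.45 ± 0.536). Esam, Procr, Slamf1 and Ly6a were last in GMPs, all below 1 CPM per kb on average and overlapping.

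**Figure D3:**
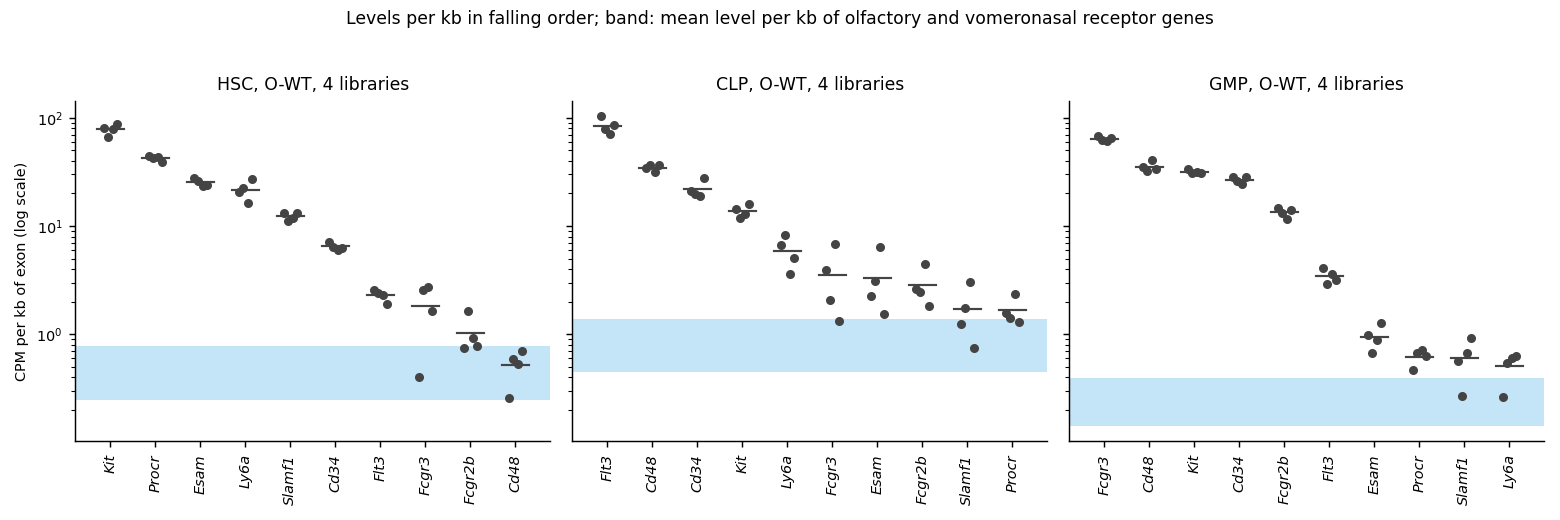
Levels per kb of exon (log axis) of the 10 genes in the 4 O-WT libraries of each population, ordered by mean, with the range of the receptor gene level shaded. In HSCs only Fcgr3, Fcgr2b and Cd48 reach into the shaded band, in CLPs Slamf1, Procr and Fcgr3, and in GMPs Slamf1 and Ly6a.

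At the low end of this order, levels came near that of the receptor genes. In CLPs of both treatments Slamf1 was at 1.42 to 2.46 times, Esam at 2.12 to 5.50 times and Procr at 0.169 to 3.65 times the receptor level per kb of the same library, and in GMPs at 1.87 to 3.13, 2.93 to 4.69 and 1.49 to 4.73 times. In O-WT mice all 3 were called higher in CLPs than in GMPs (log2 fold changes 1.00 ± 0.28, 1.29 ± 0.26 and 0.96 ± 0.26). The receptor level itself was higher in CLPs, and its part in these differences was not tested. The Slamf1 and Procr calls were lost without a filter on low counts (adjusted p = 0.149 and 0.292). The Procr call was also lost with a limit of 1 CPM (0.63, edgeR adjusted p = 0.0974). The highest O-WT CLP values of Slamf1, Esam, Procr, Fcgr3 and Fcgr2b all came from replicate 3, which also had the most receptor gene reads of the 24 libraries (8303 CPM).

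The same contrasts in the O-NR mice gave 5 members higher and 4 lower in HSCs than in CLPs (background 21.3% and 20.4% of 17664 genes), 5 and 5 against GMPs (21.5% and 25.6%), and 3 higher and 4 lower in CLPs than in GMPs (24.3% and 25.7%). These counts also pool members of the definitions and are no finding against the shares of all genes. All 10 members had the same sign as in O-WT in all 3 contrasts. Procr reached 5.67 ± 0.33 for HSCs over CLPs, and Cd48 −6.26 ± 0.31 (adjusted p = 7.73e-14 and 2.72e-15). Slamf1 and Procr, called higher in O-WT CLPs than GMPs, were at 0.19 ± 0.23 and 0.45 ± 0.44 in O-NR mice and did not pass (adjusted p = 0.483 and 0.389). The Flt3 call between HSCs and GMPs (−0.70 ± 0.20, adjusted p = 0.00508) was lost on scaling over genes above 30 CPM (−0.30, adjusted p = 0.189) and without scaling (adjusted p = 0.0974). The Cd34 call between CLPs and GMPs (−0.56 ± 0.18, adjusted p = 0.0118) was lost with upper quartile scaling (adjusted p = 0.140), without scaling (0.129), on scaling over genes above 30 CPM (0.285), with a fold limit of 1.5, and without CLP O-NR replicate 4 (0.0532).

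Genes related to the members were taken from fixed lists and counted in the O-WT contrasts, where the median of all genes was as given above. Their counts are to be read against all genes called in these contrasts, 18.3% higher and 12.4% lower in HSCs than in CLPs, 23.9% and 22.0% against GMPs, and 35.7% and 25.3% in CLPs against GMPs. Several lists lay near these shares, and nothing particular to a list is read from them. Of 11 SLAM family genes and partners, 7 were tested. In HSCs 1 higher and 4 lower than in CLPs were called (median −1.58) and 2 higher and 2 lower than in GMPs (median 0.06). In CLPs 5 higher and 0 lower than in GMPs were called. Cd244a, the receptor for CD48, was low in HSCs like its ligand, at 2.77 to 8.75 CPM in the 8 HSC libraries and 49.7 to 104 in CLPs (O-WT log2 fold change −3.58 ± 0.24, adjusted p = 6.25e-14). Slamf6, which lies in the same cluster on chromosome 1, was −2.35 ± 0.22 and Ly9 −1.59 ± 0.19.

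Of 12 other Fc receptors and chains, 11 were tested. 1 was called higher and 3 lower in HSCs than in CLPs (median −0.60), 1 and 3 against GMPs (median 0.46), and CLPs had 6 higher and 3 lower than GMPs (median 0.97). The signalling chain Fcer1g was lower in HSCs than in GMPs by a log2 fold change of −3.08 ± 0.24, and the chains of the IgE receptor Ms4a2 and Fcer1a by −5.40 ± 0.32 and −5.05 ± 0.38 (adjusted p = 1.28e-12, 1.04e-15 and 3.29e-13). Mast cell and basophil markers were at 119 to 573 summed CPM over 6 genes in GMPs, against 5.24 to 13.3 in HSCs, and their part in this was not tested. Fcgrt, the neonatal Fc receptor, went the other way, at 21.4 to 26.3 CPM in HSCs and 1.99 to 11.3 in CLPs (1.76 ± 0.25).

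Among 14 ligands, kin and regulators of Kit and Flt3, 13 were tested, with 3 higher and 3 lower in HSCs than in CLPs, 1 higher and 5 lower than in GMPs, and 3 higher and 7 lower in CLPs than in GMPs. The ligand Flt3l was highest where its receptor was lowest, at 13.7 to 20.9 CPM in HSCs and 1.43 to 3.98 in CLPs (2.99 ± 0.34, adjusted p = 1.04e-08). Csf1r, the macrophage colony-stimulating factor receptor and a relative of both, was highest in GMPs (HSC over GMP −3.42 ± 0.23).

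In the Ly6 family, 5 of 12 genes were tested, with 2 higher and 3 lower in HSCs than in CLPs, 1 higher and 3 lower than in GMPs and 1 higher and 2 lower in CLPs than in GMPs. Ly6d, a marker of B lineage-primed CLPs, was at 73.9 to 112 CPM in CLPs (−7.04 ± 0.33 for HSCs against CLPs), and Ly6c2 was at 94.5 to 257 in GMPs (−6.07 ± 0.32 for HSCs against GMPs). Ly6c1, with which Ly6a shares some sequence, stayed at or below 1.67 CPM in cohort 2. Among 9 relatives of CD34 and ESAM, 9 were tested, with 5 higher and 1 lower in HSCs than in CLPs (median 1.48), 6 higher and 1 lower than in GMPs (median 2.36) and 7 higher and 1 lower in CLPs than in GMPs. The junction proteins F11r and Jam2 and the sialomucin Podxl were higher in HSCs, as Esam was, with HSC over CLP differences of 3.59 ± 0.27, 2.73 ± 0.24 and 2.46 ± 0.26. Of 11 protein C pathway genes, 8 were tested, with 5 higher and 1 lower in HSCs than in CLPs and 4 higher and 1 lower than in GMPs, and 4 higher and 1 lower in CLPs than in GMPs. The thrombin receptor F2r was at 45.1 to 76.9 CPM in HSCs and 5.33 to 15.7 in CLPs (2.81 ± 0.21). Endothelial markers, some of which HSCs also express, summed to 238 to 291 CPM in HSCs, 75.3 to 154 in CLPs and 32.2 to 58.6 in GMPs. Il7r, by which CLPs were gated, was at 237 to 332 CPM in CLPs and 1.35 to 7.47 in HSCs (−5.92 ± 0.33).

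Of 30 further surface antigens used in stem and progenitor sorting, all were tested. HSCs had 14 higher and 11 lower than CLPs (median 0.28) and 13 higher and 7 lower than GMPs (median 0.63), and CLPs had 13 higher and 8 lower than GMPs (median 0.31). The integrin chain Itgb3 and P-selectin (Selp) were higher in HSCs than in GMPs by log2 fold changes of 3.77 ± 0.25 and 4.06 ± 0.26. Platelet markers, whose genes HSCs also express in part, summed to 237 to 389.8 CPM in HSCs and to at most 36.9 in CLPs and GMPs, and their part in these values was not tested. Siglech, an antigen of plasmacytoid dendritic cells and their precursors, was higher in CLPs than in GMPs (4.42 ± 0.36). In the NR comparisons of both cohorts, 0 of these antigens were called. Of all genes tested, 0.431% to 0.990% were called within a cell type of cohort 2 and 0.0293% to 0.0554% in cohort 1. At such shares 30 genes would mostly give 0 calls, so the 0 says little of these antigens. Of the other related lists, 1 gene passed an unadjusted p below 0.01 by NR, Podxl, in HSCs of cohort 2 (O-NR against O-WT −0.42 ± 0.13, edgeR adjusted p = 0.996), with 36.8 to 45.6 CPM in O-NR and 41.9 to 69.5 CPM in O-WT libraries, ranges that overlapped.

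The genes whose log2 CPM followed each member most closely over the 24 libraries of cohort 2 are given with Pearson's r as a description, since the libraries share 3 cell types and their depth. For Kit they were Lmo2 (0.991), Nfe2 (0.986) and Arrb1 (0.985), for Ly6a Gbp8 (0.975), Rtp4 (0.971) and Agpat3 (0.971), and for Flt3 Drc7 (0.986), Il12a (0.985) and H2-Ob (0.983). For Slamf1 they were Fhdc1 (0.990), Clec1a (0.989) and Col16a1 (0.988), for Esam Evc2 (0.992), Dst (0.991) and Matn4 (0.990), and for Procr Pdzk1ip1 (0.984), Slc25a27 (0.981) and Nkx2-3 (0.981). Those of Cd48 were H2afx (0.992), Hist1h3d (0.989) and Ccna2 (0.989), a variant histone, a replication-dependent histone and an S phase cyclin, and those of Cd34 were Cd44 (0.986), Dap (0.980) and Parp8 (0.977). For Fcgr3 they were Sgms2 (0.980), Hdc (0.976) and Zfp568 (0.975), and for Fcgr2b Ccl9 (0.979), Card9 (0.978) and Ctsg (0.975). Among the members themselves, Slamf1 and Esam were closest (0.982).

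In each cell type of cohort 2, 0 of the members tested were called by NR. At the shares of all genes called, given with each NR comparison below, so few members would mostly give 0 calls in any case. The 0 therefore says little of them. In HSCs, 8 members passed the filter and 0 were called at an unadjusted p below 0.01 (0 also at an unadjusted p below 0.05), against 0.734% of 17307 genes. Their log2 fold changes ran from −0.13 to 0.27 (SE 0.11 to 0.37). Kit was at 758, 770.2, 921 and 792 CPM in O-NR HSCs, Procr at 92.7, 90.4, 104 and 77.1, Slamf1 at 81.9, 68.2, 63.6 and 72.1, Esam at 82.7, 70.0, 71.5 and 63.8 and Ly6a at 35.8, 25.4, 24.2 and 38.7. Each of these ranges overlapped that of O-WT. So did those of Cd34, at 55.5, 45.9, 61.5 and 47.4 CPM, of Flt3, at 13.6, 14.2, 13.4 and 9.57, and of Fcgr2b, at 5.27, 9.98, 2.98 and 4.38. Cd48 and Fcgr3 were too low in HSCs to be tested, and Cd48 had 0 reads in O-NR replicate 2, which allows up to 0.333 CPM (3 reads) by counting error alone.

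In CLPs all 10 members were tested and 0 were called (0 at an unadjusted p below 0.05), against 0.431% of genes, with log2 fold changes from −0.76 to 0.51 (SE 0.19 to 0.59). Flt3 was at 632, 604, 426 and 353 CPM, Cd48 at 47.1, 44.0, 33.7 and 40.4 and Cd34 at 237, 172, 161 and 114 in O-NR CLPs, each overlapping O-WT. The HSC markers stayed low, with Kit at 154, 139, 155 and 104, Slamf1 at 5.10, 3.17, 8.67 and 6.49 and Esam at 7.14, 5.56, 10.7 and 4.52 CPM. Fcgr3 was at 4.19, 1.80, 2.42 and 6.49 and Fcgr2b at 12.5, 9.07, 23.5 and 20.4 CPM, and Ly6a ran from 4.02 to 21.6 CPM. Procr had 2 reads in 1 O-NR CLP library as its lowest count, and its 4 values were 3.74, 0.514, 0.284 and 2.55 CPM. In GMPs 7 members were tested and 0 called, against 0.990%, with log2 fold changes from −0.35 to 0.16 (SE 0.07 to 0.32). Flt3, at 12.2, 15.5, 21.7 and 18.9 CPM in O-NR GMPs, was the 1 member with an unadjusted p below 0.05 (−0.35 ± 0.16, edgeR adjusted p = 0.997), and its groups overlapped. The other markers of the GMP gate overlapped too, with Fcgr3 at 111, 117, 115 and 128, Fcgr2b at 87.0, 87.2, 84.1 and 68.1 and Cd34 at 201, 198, 236 and 208 CPM. Kit was at 318, 340.1, 339.8 and 262 and Cd48 at 42.6, 40.0, 42.0 and 41.8 CPM in O-NR GMPs, again within or across the O-WT values. Ly6a, Procr, Esam and Slamf1 stayed low, at 0.333 to 0.548, 0.833 to 1.48, 2.18 to 3.58 and 3.15 to 4.83 CPM. The DESeq2 fits also called 0 members in each cell type.

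The difference of the NR effect between cell types was fitted over all 24 libraries, and 0 of 10 members passed in any pair, where 0.420% (HSC against CLP), 0.132% (HSC against GMP) and 0.430% (CLP against GMP) of 20470 genes did. The members with an unadjusted p below 0.05 were Procr between HSCs and CLPs (0.91 ± 0.42 on the log2 scale, edgeR adjusted p = 1.000) and Slamf1 between CLPs and GMPs (−0.78 ± 0.37, edgeR adjusted p = 0.952). Both rest on the low CLP levels given above. Cd48 and Fcgr3 in HSCs, and Ly6a, Procr and Esam in GMPs, were under the filter within that cell type and entered this fit through the others, so their differences involving it rest on few reads and the 0 says little of them.

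**Figure D4:**
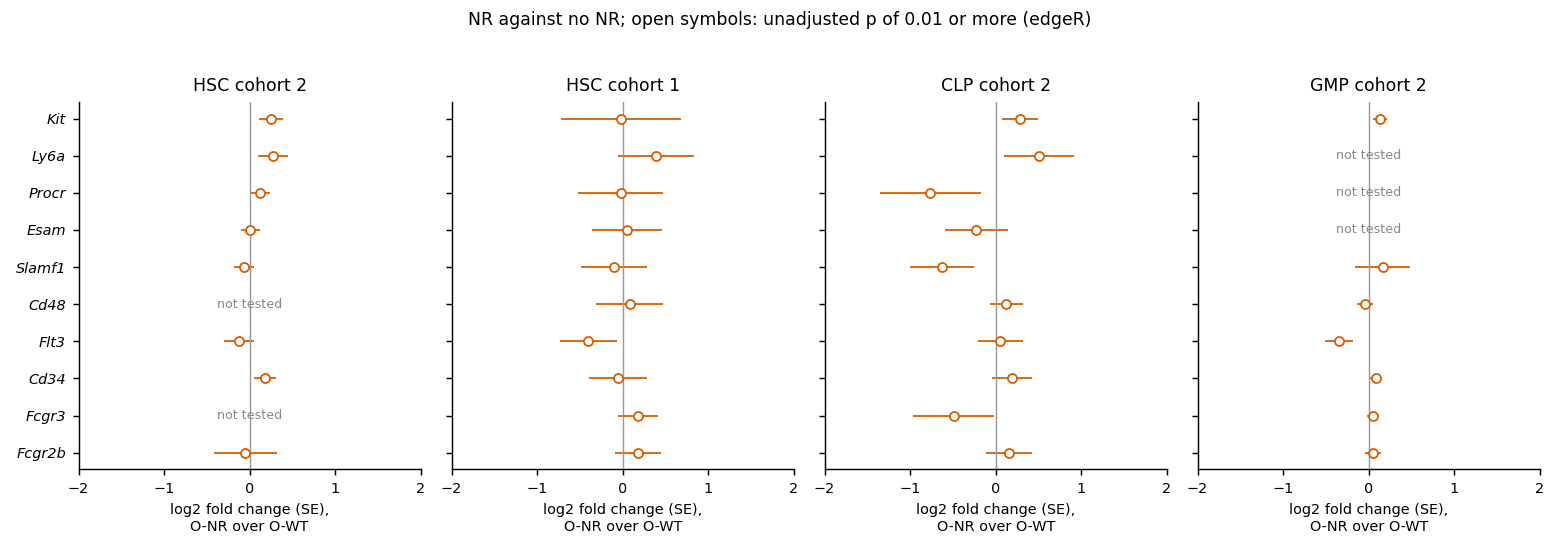
Log2 fold changes of O-NR over O-WT with standard errors in the HSCs of both cohorts, in CLPs and in GMPs; genes under the filter are marked as not tested. No symbol is filled, and the errors are widest in cohort 1 and in CLPs.

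In the HSCs of cohort 1 the members again gave 0 calls for O-NR against O-WT (0.0358% of 30694 genes called), for O-NR-RC against O-NR (0.0293%) and for O-NR-RC against O-WT (0.0554%), and 0 had an unadjusted p below 0.05. Log2 fold changes ran from −0.40 to 0.39, −0.67 to 0.52 and −0.32 to 0.12, with SEs up to 0.70, 0.62 and 0.73. When the HSCs of both cohorts, 14 libraries, entered one fit of NR against control, 0 of 9 members tested were called (0.115% of genes), and the effect differed between cohorts for 0 of 9 (0.128%).

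In cohort 1 the levels of Kit, Fcgr2b, Fcgr3 and Cd48 moved with the receptor gene reads (Pearson's r −0.88, 0.99, 0.95 and 0.95). Those of the other 6 members overlapped between libraries rich and poor in them, Procr and Esam narrowly. Their r was −0.69 for Procr, −0.53 for Esam, 0.42 for Cd34, −0.27 for Ly6a, 0.21 for Flt3 and −0.11 for Slamf1. In the 8 HSC libraries of cohort 2, r was 0.87 for Fcgr3 and Fcgr2b, −0.75 for Cd34, −0.66 for Kit and −0.15 for Cd48. For the rest it ran from −0.34 to 0.08. Kit was at 496 and 568 CPM in O-WT, 416, 346, 606 and 739.5 in O-NR and 593, 357 and 398 in O-NR-RC. The 4 libraries with over 10000 CPM on receptor genes had 346 to 416 CPM of Kit and the other 5 had 496 to 739.5. Fcgr2b went the other way, at 15.4 and 22.1 in O-WT, 31.5, 30.8, 18.5 and 14.5 in O-NR and 10.96, 31.6 and 29.7 in O-NR-RC, which is 29.7 to 31.6 in the 4 libraries and 10.96 to 22.1 in the other 5. Fcgr3 (10.3 to 13.6 against 5.12 to 8.01) and Cd48 (4.67 to 5.62 against 1.30 to 2.99) did the same. Set against the receptor level per kb of its own library, Fcgr2b was at 2.10 to 2.98 times in the 9 libraries of cohort 1 and at 1.65 to 3.00 times in the 8 of cohort 2. Against the same level, Cd48 was at 0 to 2.44 times in cohort 2, below it in 4 of 8 libraries, and at 1.42 to 2.33 times in cohort 1. Whether HSCs transcribe Fcgr2b, Fcgr3 or Cd48 above this level was not tested.

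**Figure D5:**
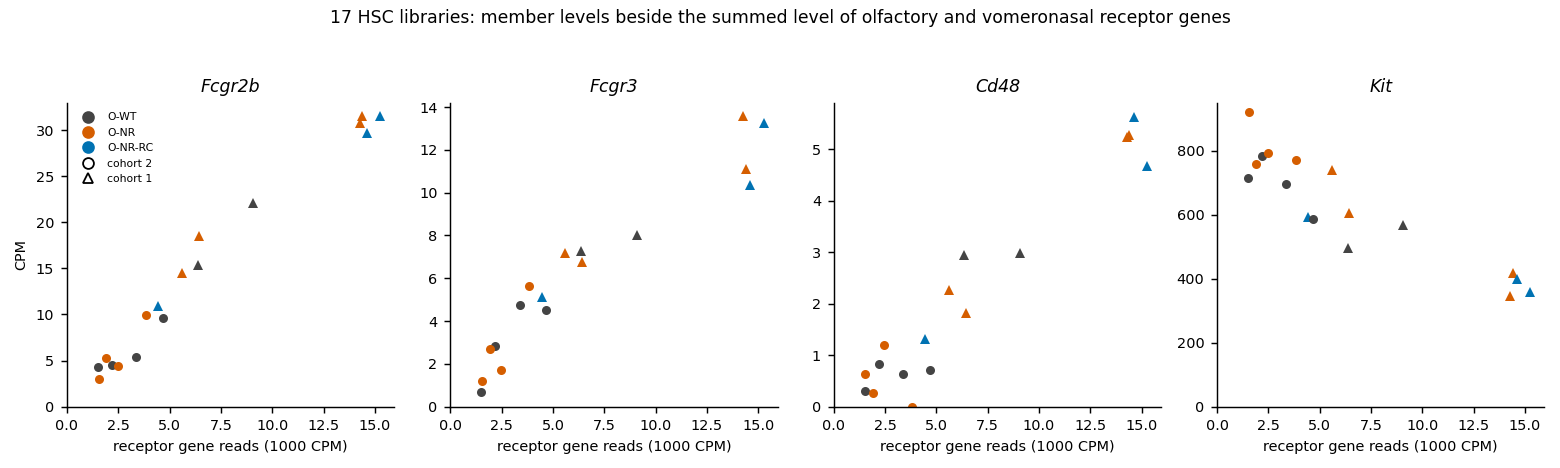
CPM of Fcgr2b, Fcgr3, Cd48 and Kit in the 17 HSC libraries (circles cohort 2, triangles cohort 1) beside the summed CPM of smell and pheromone receptor genes. Fcgr2b, Fcgr3 and Cd48 are highest and Kit lowest in the 4 cohort 1 libraries on the right.

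Slamf1, the gate marker, was at 59.3 and 76.9 CPM in O-WT, 56.2, 71.7, 65.7 and 72.6 in O-NR and 60.9, 61.7 and 63.1 in O-NR-RC, and the 3 groups overlapped. In the 9 libraries Esam ran from 53.4 to 74.2 CPM and Cd34 from 39.0 to 53.4, also with overlap between groups. Procr was at 66.6 and 78.5 CPM in O-WT, 52.4, 49.4, 85.7 and 98.6 in O-NR and 65.6, 54.2 and 65.8 in O-NR-RC. The O-NR-RC libraries lay below O-WT, and groups did not overlap for 4.71% of tested genes. O-NR-RC replicates 2 and 3 were among the libraries rich in receptor reads. The log2 difference of Procr, O-NR-RC against O-WT, was −0.32 ± 0.52. It turned to 0.18 without the 4 libraries rich in receptor reads, which leaves 1 O-NR-RC library. Ly6a was at 13.6 and 24.2 CPM in O-WT, 17.1, 18.0, 29.4 and 34.0 in O-NR and 15.7, 19.2 and 16.1 in O-NR-RC, with the 2 highest values in O-NR replicates 3 and 4. Flt3 was at 33.1 and 20.0 CPM in O-WT, 27.2, 26.2, 20.0 and 16.6 in O-NR and 33.5, 28.98 and 31.2 in O-NR-RC, and the O-NR-RC libraries lay above all O-NR libraries, which is also so, in one direction or the other, of 1.14% of tested genes. A fit without the 4 libraries rich in receptor reads, which leaves 1 O-NR-RC library and 2 of each other group, was a choice made after seeing the data. In it, Ly6a was higher in O-NR than in O-WT by a log2 fold change of 0.90. Procr, Kit and Esam were then at 0.49, 0.48 and 0.42 and Flt3 at −0.43. The other members in that fit lay between −0.05 and 0.17. In cohort 2, Ly6a was at 24.7, 27.3, 19.7 and 32.5 in O-WT and 35.8, 25.4, 24.2 and 38.7 CPM in O-NR HSCs, groups that overlapped, and the fit of both cohorts without these libraries called 0 members.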

How the data were processed

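Total RNA of sorted bone marrow cells was made into libraries with the SMARTer stranded pico kit, version 2, and sequenced as pairs of 105 bases. Per the labels and the study's methods, the authors trimmed reads with Trim Galore 0.4.3 and cutadapt 1.12, aligned them to mm10 with STAR, and counted reads per gene of Gencode vM22 with featureCounts. The deposited values are raw counts per gene symbol, 1 file per library. The strand setting is not given in the sources used here. One label field names the GMP libraries as common myeloid progenitors, whereas their titles and the study's methods say GMP, which was used.

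CPM were the counts over the library total. Differences came from edgeR 4.0.16 (R 4.3.3; TMM scaling, quasi-likelihood test, two-sided, Benjamini-Hochberg adjustment over all genes tested) on genes above 3 CPM in 4 or more libraries (2 or more in cohort 1, 6 or more for both cohorts). The 12 libraries of one treatment entered the contrasts between populations, called at an adjusted p below 0.05. NR contrasts were called at an unadjusted p below 0.01, the p limit of the study's figures, within a cell type, over all 24 libraries for differences between cell types, and over the 9 libraries of cohort 1. The study's methods also name a fold change above 1.5, which was used here only among the alternatives. Standard errors are the fold change over the root of the test statistic. Alternatives were RLE and upper quartile scaling, DESeq2 1.42.0, a limit of 1 CPM, no filter, a fold above 1.5, a replicate block and leaving out each library. Scaling without TMM or over genes above 30 CPM, and fits without libraries rich in receptor reads, were added after seeing the data. The fit was tested on simulated data.

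Same-numbered libraries of the 3 populations carried the same animal number in their deposited names and were taken to come from the same animal. The main contrasts between populations were fitted without this pairing, which entered only through the replicate block among the alternatives. O-WT and O-NR mice were different animals. Deviations of same-numbered libraries from their group means correlated at −0.02 on average in O-WT and −0.02 in O-NR (12 pairs each). Depth was 4792380 to 23816042 counts, and a count of 0 allows up to 3 reads by counting error only. Within groups, library pairs differed beyond sampling noise (smallest chi-square per degree of freedom 1.91), so none was counted as a duplicate. Exon lengths came from Gencode M21 and promoters from RefSeq. The members and lists were chosen with earlier results of these data known. Of each list, up to 3 called genes with the smallest p per O-WT contrast were named, and Il7r as a gate gene; 1 gene that this rule names is not reported here. As genes of like pattern, the 3 with the highest correlation were named for each member. Ly6c1 was named after its values were seen.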

Additional observations from a re-analysis of the deposited data

Results flagged for a closer look

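In each group of 4 libraries, the highest and the lowest value of every member were set against the other 3. Of 70 sets of values, 2 had a library apart, where chance gives about 1 in 20. Ly6a was at 21.6 CPM (186 reads) in CLP O-NR replicate 4 of cohort 2, whereas the other 3 libraries of that group had 4.02 to 6.54 CPM. Fcgr2b was at 68.1 CPM in GMP O-NR replicate 4, below the 84.1 to 87.2 CPM of the other 3.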

How the results depend on the processing

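Each count of members and each member difference between populations was recomputed under the alternatives, as were the NR differences of Flt3, Procr and Slamf1 named above. Of the 60 member differences between populations, 1306 alternative values kept their direction and side of the threshold, 19 passed it newly, 14 no longer passed, and 11 changed direction. All changes of direction were in differences that had not passed. The difference of Cd48 between CLPs and GMPs was 0.016 in O-WT and 0.019 in O-NR without scaling, 0.12 and 0.13 with scaling over genes above 30 CPM, 0.12 in O-WT when the CLP library richest in receptor reads was also left out, and 0.054 in O-NR with upper quartile scaling. Slamf1 between CLPs and GMPs in O-NR was −0.017 with a limit of 1 CPM and −0.039 without a filter. With single libraries left out it ran from −0.027 to 0.39, Procr in the same contrast from −0.18 to 0.80, and Fcgr3 between HSCs and CLPs in O-NR from −0.96 to 0.0021. The cause was not tested.

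Without the 4 libraries of cohort 1 rich in receptor reads, a choice made after seeing the data, 3 members were called for O-NR against O-WT, 2 for O-NR-RC against O-NR (Ly6a −0.83 and Flt3 1.07) and 1 for O-NR-RC against O-WT (Flt3 0.64). The lone O-NR-RC library was then assumed to vary like the other groups. With single libraries left out, the members called for a difference of the NR effect ran from 0 to 1 between HSCs and CLPs (Procr 1.56 without CLP O-NR replicate 1) and from 0 to 1 between CLPs and GMPs (Slamf1 −0.99 without CLP O-WT replicate 4). With the replicate number as a block, the O-WT counts were 10, 10 and 10, the other counts kept their value, and the difference between cohorts called 2 members, Kit (−1.03) and Procr (−0.91), though mice of both groups share only a number there. The shares of all genes called with this block are not given, so its counts are not read as a result about the members. Same-numbered O-WT and O-NR libraries correlated at 0.14 in HSCs, 0.03 in CLPs and 0.05 in GMPs on average.

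In O-WT HSCs the coefficient of variation of Kit was 11.8% on library totals, 26.0% with TMM and 9.36% with scaling over genes above 30 CPM, which limits the precision of differences between populations. Members at a few reads per library (Cd48 in HSCs, Ly6a and Procr in GMPs) were limited by depth.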
